A study of Homo sapiens with 9 samples.

Results

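The HOX genes are homeobox transcription factors that lie in 4 clusters, HOXA on chromosome 7, HOXB on chromosome 17, HOXC on chromosome 12 and HOXD on chromosome 2. The members described here were all protein-coding genes of GENCODE 29 whose symbol is HOXA, HOXB, HOXC or HOXD followed by a number, which gave 39 of the 56865 genes summed from the deposited tables. Of these, 16 passed the filter on low counts, against 13914 genes tested in all. The study sequenced poly(A)-selected RNA of cells labelled BxPC3, an established line from a human pancreatic adenocarcinoma, in 3 groups of 3 libraries. One group received vehicle (DMSO), one the compound MS172 and one the compound PK9328, a compound known to bind mutant p53. Every group carried the genotype p53Y220C/-, so the vehicle libraries shared the mutant allele. The treatment protocol gives 5 µM for 6 h for both compounds, but it writes MS78 where titles, treatment labels and the series design write MS172. The labels name no separate cultures for the replicates, so p-values measure the spread between these libraries, which may be technical.

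Within a cluster, HOX genes are numbered by paralogue group, and genes of the same number in different clusters descend from a common ancestral gene. In the embryo, low-numbered genes are used toward the head and high-numbered genes toward the tail and the ends of the limbs, and adult cells often keep the combination of their region of origin. HOX proteins bind DNA together with cofactors of the PBX and MEIS families, Polycomb complexes keep silent HOX genes repressed, and Trithorax-type complexes keep active ones on.

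The start regions of 3 neighbours at the high-numbered end of the HOXA cluster are shown first, because HOXA11 had the largest fold change of any tested member while HOXA13 was not called and HOXA10 had no reads. Each sequence is the 250 bases before a start site in RefSeq GRCh38.p14, read 5′ to 3′ on the minus strand of chromosome 7. Capitals mark ACGTCA, the reverse complement of TGACGT, the core of the cAMP response element.
HOXA11 (chr7:27185233-27185482): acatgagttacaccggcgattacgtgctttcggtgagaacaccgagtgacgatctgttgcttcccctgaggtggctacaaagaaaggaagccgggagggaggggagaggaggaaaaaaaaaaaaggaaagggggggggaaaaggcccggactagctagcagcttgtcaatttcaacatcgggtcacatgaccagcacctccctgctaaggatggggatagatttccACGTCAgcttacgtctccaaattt
HOXA13 (chr7:27200092-27200341): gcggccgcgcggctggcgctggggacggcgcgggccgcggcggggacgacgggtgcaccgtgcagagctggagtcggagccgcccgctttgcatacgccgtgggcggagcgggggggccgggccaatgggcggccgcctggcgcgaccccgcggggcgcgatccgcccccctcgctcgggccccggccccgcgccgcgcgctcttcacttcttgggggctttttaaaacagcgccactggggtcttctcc
HOXA10 (chr7:27179862-27180111): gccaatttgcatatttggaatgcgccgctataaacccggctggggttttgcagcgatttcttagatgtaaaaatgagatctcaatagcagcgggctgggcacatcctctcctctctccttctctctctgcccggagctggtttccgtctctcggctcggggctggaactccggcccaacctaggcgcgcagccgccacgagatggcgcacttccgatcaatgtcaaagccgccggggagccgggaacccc

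Searched on both strands, TGACGT was found in 1 place in the HOXA11 window, starting at base 227, and in neither of the other windows shown. Among start regions not shown, TGACGT was also found in a HOXA3 window (base 189) and in the HOXD11 window (base 203). HOXA3 was called higher with MS172 than with DMSO, and HOXD11 had no reads. TGACGT occurs in 7.09% of the 34943 RefSeq windows of the same length. The HOXA11 window held 11 CpG dinucleotides, which is the median of all windows, and the HOXA13 window held 40, at the 97.8th percentile. The HOXA10 window held 19 CpG and a TATAAA match, a motif found in 10.8% of all windows. A second HOXA10 start region, not shown, held 24 CpG and also a TATAAA match. The motifs AGGTCA (12.1% of all windows), TGATNNAT (6.49%) and CACGTG (6.32%) had no match in the windows shown. CACGTG shares the letters ACGT with TGACGT, and AGGTCA shares GTCA with its reverse complement. RefSeq start regions were found for 20 of the 39 members. These matches describe letters only, and no binding was measured.

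Libraries held 24077353 to 28031886 estimated reads, of which HOX genes took 2631.83 to 3600.11, or 0.0106% to 0.0136% of the reads matched to genes. The cell type label was checked against marker genes. Of 32 ductal and epithelial markers, 22 stayed under 1 TPM (an abundance per transcript length, scaled to the library) in every library, among them EPCAM with at most 2 reads and CDH1 with at most 1 read, whereas KRT8, KRT18 and KRT19 stood at 588, 728 and 339 TPM with DMSO. Of 25 mesenchymal and fibroblast markers, 12 were at 1 TPM or more in all libraries, led by VIM at 7027 TPM, while PDGFRA, DCN and LUM had at most 5 reads and FAP had none. All 7 endothelial and all 10 acinar and endocrine markers stayed under 1 TPM. The defining epithelial adhesion genes of the labelled cell type were thus near 0, and the cells are called by their label here.

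HOX transcripts came from HOXA, HOXB and HOXC, and the HOXD cluster was nearly silent. A member was called on in a group where all 3 libraries reached 1 TPM, and 13 of 39 members were on with DMSO. They were 8 of 10 HOXB genes (HOXB2, HOXB3, HOXB5, HOXB6, HOXB7, HOXB8, HOXB9 and HOXB13), 3 of 11 HOXA genes (among them HOXA3 and HOXA11), 2 of 9 HOXC genes (HOXC6 and HOXC8) and 0 of 9 HOXD genes. By position, 4 of 8 members of paralogue groups 1 to 3 were on, 6 of 15 of groups 4 to 8 and 3 of 16 of groups 9 to 13. In bulk RNA, fewer cells that use a gene and less RNA per cell cannot be told apart, and this holds for every level and change below.

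**Figure D1:**
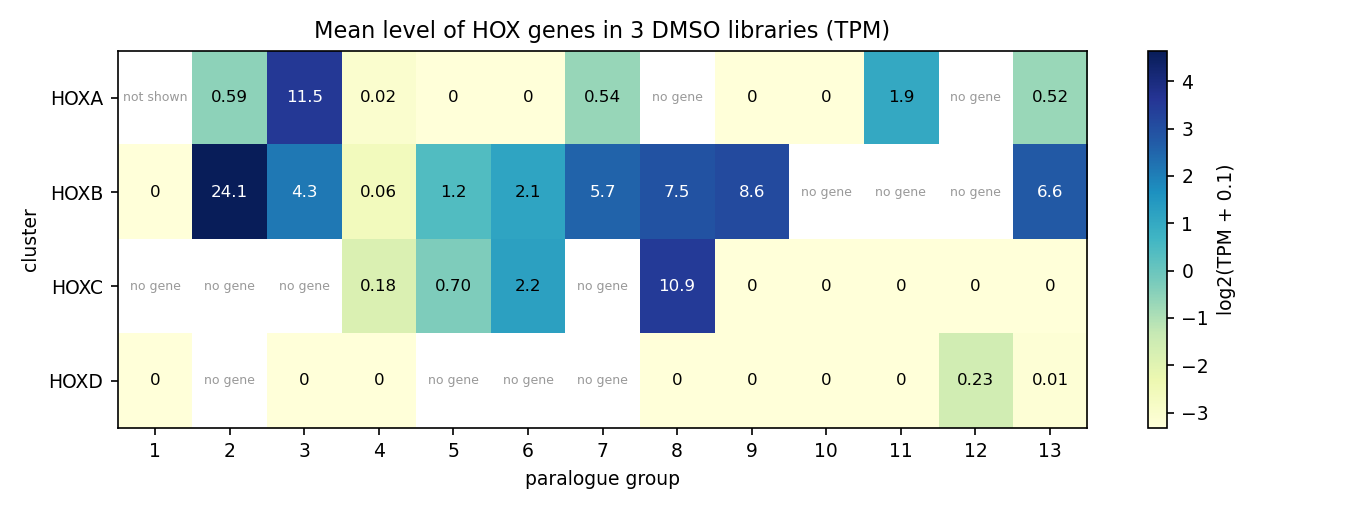
Mean level of HOX genes in the 3 DMSO libraries, with clusters in rows and paralogue groups in columns. Numbers are TPM and color is log2(TPM + 0.1). The HOXB row is filled at 8 of 10 positions and the HOXD row at none, and levels drop sharply from HOXA3 to HOXA4 and from HOXC8 to HOXC9.

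HOXB2, an anterior gene known for patterning the hindbrain, had the highest level. It stood at 23.2, 25.4 and 23.8 TPM in DMSO libraries 1 to 3, at 12.1, 15.8 and 15.8 TPM in the MS172 libraries and at 30.3, 26.4 and 22.7 TPM in the PK9328 libraries. All MS172 libraries lay below all others. Its DMSO mean of 24.1 ± 1.13 TPM (SD, n = 3) was at the 78.1th percentile of protein-coding genes.

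HOXA3, which patterns the pharyngeal arches and the thymus, followed at 11.2, 12.7 and 10.7 TPM with DMSO. Of this level, 42.7% to 53.2% came from HOXA3-205, a transcript of 503 bases with 24.3 to 38.8 reads. The longer HOXA3-201 alone stood at 5.49 to 5.83 TPM. The rank of HOXA3, and the HOXA sum below, thus rest in large part on few reads of a short transcript. HOXC8, a gene of the thoracic region, stood at 10.6, 10.8 and 11.4 TPM, overlapping the range of HOXA3, so the order of this pair is not resolved. HOXB9, another trunk gene, stood at 8.49, 8.60 and 8.57 TPM. HOXB9 and HOXB8 overlapped in range, with HOXB8 at 6.95, 6.69 and 8.77 TPM. HOXB8 also overlapped HOXB13, the most posterior gene of its cluster and known for its expression in prostate and distal gut, which stood at 6.43, 6.77 and 6.67 TPM. HOXB13 lies 98406 bases beyond HOXB9, and no HOX gene lies between them. HOXB7 at 5.16 to 6.12 TPM and HOXB3 at 3.89 to 4.72 TPM closed the upper 8, and neither overlapped its neighbours in the order. In DMSO library 3, however, 2.15 TPM of HOXB7 came from HOXB7-203, a noncoding transcript of 528 bases. It had 12.4 reads there and 0 in every other library. The coding HOXB7-201 stood at 3.97 TPM in DMSO library 3, within the range of HOXB3.

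Lower in the order, HOXC6 (2.24 TPM), HOXB6 (2.12 TPM) and HOXA11 (1.93 TPM), the last a gene of the forearm, kidney and uterus, had overlapping neighbours. HOXB5 at 1.22 TPM stood just above the level that counts as on. With DMSO, HOXC5 at 0.697 TPM, HOXA2 at 0.590 TPM, HOXA7 at 0.537 TPM and HOXA13 at 0.517 TPM stood below it, each overlapping the next. The HOXA7 level rested on 4, 15 and 14 reads in DMSO libraries 1 to 3 (0.225, 0.890 and 0.496 TPM). HOXA7 did not pass the filter on low counts, so its place in the order is uncertain. HOXA13, a gene of the hand, foot and genital tubercle, still had up to 76 reads in a library, over 5086 exon bases. HOXB4 was at most 0.181 TPM between HOXB3 and HOXB5, which were both on.

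**Figure D2:**
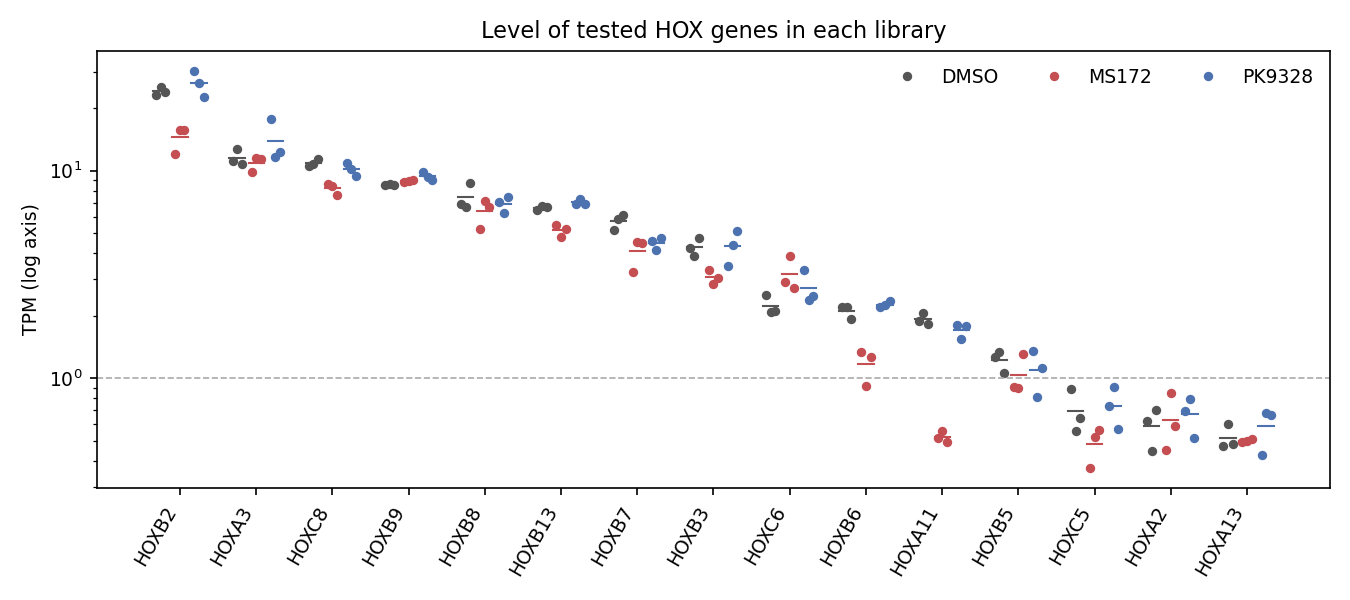
Level of tested HOX genes in each of 9 libraries, on a log TPM axis, with a short bar at each group mean and a dashed line at 1 TPM. HOXA11 and HOXB2 of the MS172 libraries lie below every other library, and for HOXA13 and HOXA2 the groups overlap.

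The remaining members were at the limit of detection. Of the 39, 15 had no read in any library: HOXA6, HOXA9 and HOXA10, HOXB1, HOXC9 to HOXC12, and HOXD1, HOXD3, HOXD4 and HOXD8 to HOXD11. A count of 0 allows up to 3 reads, or 0.107 to 0.125 CPM (counts scaled to the library total), for counting error only. Another 6 had at most 8 reads in a library, namely HOXA4, HOXA5, HOXC4, HOXC13, HOXD12 and HOXD13. HOXD12 reached 8 reads and 0.658 TPM in DMSO library 1 and at most 1 read in each of the other 8 libraries. On chromosome 7, HOXA11 lay between HOXA10, at 0 reads and 1248 bases away, and HOXA13, at 0.517 TPM and 8279 bases away.

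Summed over members, HOXB held most HOX transcripts. Its TPM sum was 60.2 ± 1.89 (SD, n = 3) with DMSO, against 16.2 ± 1.39 for HOXA, 14.1 ± 0.369 for HOXC and 0.240 ± 0.363 for HOXD, and its share was 66.4%. With MS172 the HOXB sum was 44.4 ± 3.34 TPM and with PK9328 it was 62.2 ± 3.36 TPM. On the TPM scale the median of all tested genes differed by -0.18 (log2) between MS172 and DMSO, by 0.05 between PK9328 and DMSO and by -0.24 between MS172 and PK9328. The HOXB sum was lower with MS172 than with DMSO by -0.44 (log2), or -0.26 relative to that median, without overlap between libraries. The HOXA sum differed by -0.28 (-0.11 relative to the median) and the HOXC sum by -0.22 (-0.05 relative to the median). Each of these 3 differences had a two-sided exact permutation p of 0.1, the smallest that 3 against 3 libraries allow. Summed as CPM in place of TPM, the HOXB sum differed by -0.17, and the HOXA sum changed direction, at 0.06. HOXB2 made up the larger part of the TPM difference in the HOXB sum, at 24.1 TPM with DMSO and 14.5 TPM with MS172. Its noncoding transcript HOXB2-203 stood at 5.87 TPM with DMSO and 2.45 TPM with MS172.

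With MS172 the number of members on was 9, against 13 with DMSO and 11 with PK9328. The contrast depended on the 1 TPM limit: at 2 TPM the counts were 9 with MS172, 9 with DMSO and 10 with PK9328, and at 0.5 TPM they were 11, 14 and 15. HOXA11, HOXB5 and HOXB6 were among those below 1 TPM in at least 1 MS172 library, and HOXB5 was among those for PK9328. These counts are on the TPM scale, where the median of all genes was also lower with MS172.

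The first test asked which members differed between MS172 and DMSO. Changes were tested on gene counts, given as CPM on TMM-scaled library sizes, with the quasi-likelihood test of edgeR, and p-values were adjusted over all genes tested by the Benjamini-Hochberg method. A member is said to rise or fall where the adjusted p was under 0.05. With MS172, 5 of the 16 tested members fell (HOXA11, HOXB6, HOXB2, HOXC8 and HOXB13) and 3 rose (HOXC6, HOXA3 and HOXB9). These 8 were 50% of the tested members, beside 35.1% of all genes called, 17.2% lower and 17.9% higher. For 9 of the 16 members the libraries of both groups did not overlap, beside 44.7% of all genes. The median log2 fold change was -0.17 over the members and -0.02 over all genes.

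**Figure D3:**
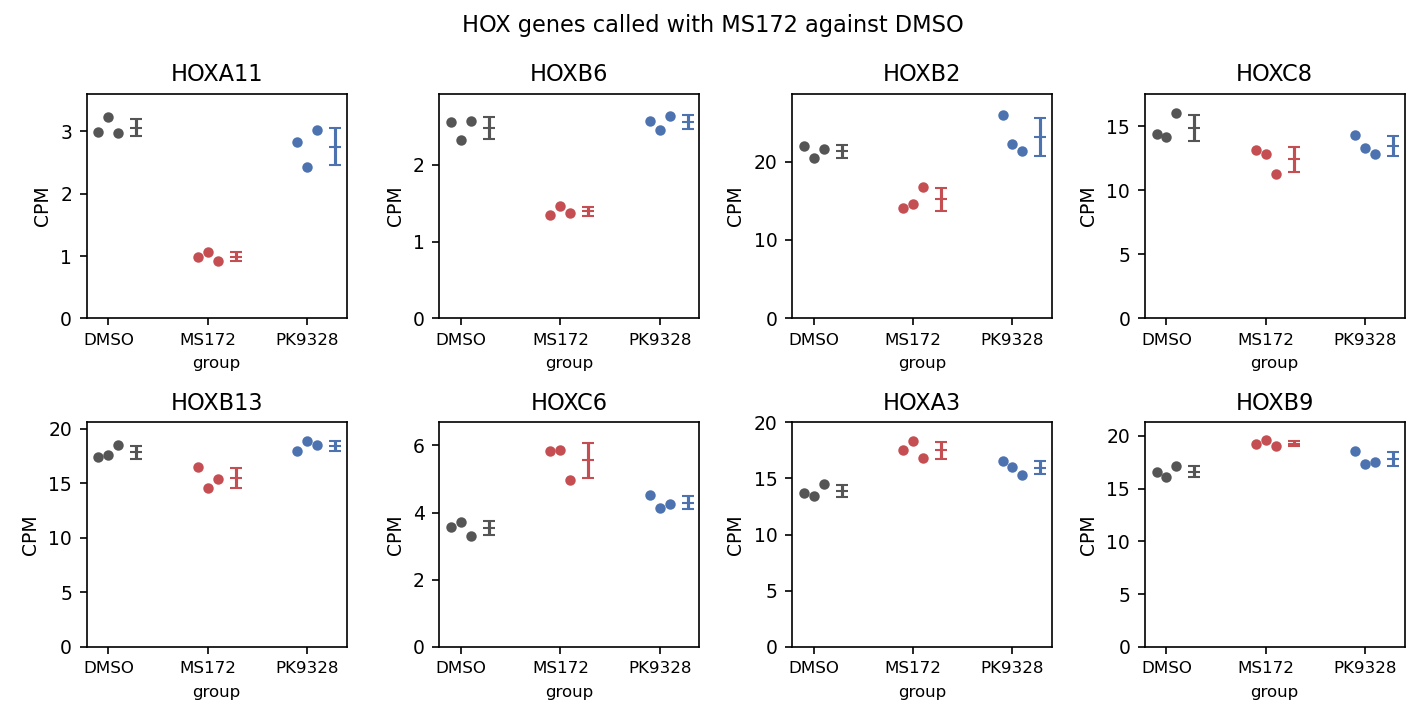
CPM in each library of the 8 HOX genes called with MS172 against DMSO, with points for the 3 libraries of each group and bars for the mean ± SD. HOXA11, HOXB6, HOXB2, HOXC8 and HOXB13 are lower in the MS172 libraries than in the DMSO libraries, and HOXC6, HOXA3 and HOXB9 are higher.

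HOXA11 fell most. It stood at 2.98, 3.23 and 2.98 CPM in the DMSO libraries, at 0.979, 1.07 and 0.918 CPM with MS172 and at 2.83, 2.43 and 3.02 CPM with PK9328. The MS172 libraries were far below both other groups, which overlapped each other. The log2 fold change between MS172 and DMSO was -1.63 (SE 0.21, adjusted p = 4.01e-07), a 3.10-fold lower level. Its neighbour HOXA13 had a log2 fold change of 0.11 with a 95% interval from -0.32 to 0.54 and an adjusted p of 0.734.

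HOXB6, a trunk gene, stood at 2.56, 2.32 and 2.57 CPM with DMSO, at 1.35, 1.46 and 1.38 CPM with MS172 and at 2.57, 2.46 and 2.64 CPM with PK9328. Again only the MS172 libraries were low. The log2 fold change was -0.83 (SE 0.20, adjusted p = 0.00189). HOXB2 stood at 22.0, 20.4 and 21.6 CPM with DMSO, at 14.1, 14.6 and 16.8 CPM with MS172 and at 26.0, 22.3 and 21.3 CPM with PK9328. Its highest MS172 library was below its lowest DMSO library, and the log2 fold change was -0.49 (SE 0.08, adjusted p = 2.5e-05).

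HOXC8 and HOXB13 fell by smaller steps. HOXC8 stood at 14.4, 14.2 and 16.02 CPM with DMSO, at 13.1, 12.8 and 11.3 CPM with MS172 and at 14.3, 13.3 and 12.8 CPM with PK9328, so the PK9328 libraries overlapped both other groups. The log2 fold change of HOXC8 was -0.26 (SE 0.09, adjusted p = 0.0202). HOXB13 stood at 17.4, 17.6 and 18.5 CPM with DMSO, at 16.5, 14.6 and 15.3 CPM with MS172 and at 17.9, 18.8 and 18.5 CPM with PK9328. The MS172 libraries were the 3 lowest, and the log2 fold change was -0.20 (SE 0.07, adjusted p = 0.0321). The HOXC8 call was lost without DMSO library 3 (or MS172 library 3), and the HOXB13 call without DMSO library 2, DMSO library 3, MS172 library 2 or MS172 library 3, with adjusted p up to 0.120 and 0.137. Both were also lost in DESeq2 and with counts rebuilt from length-scaled TPM, and HOXB13 without the filter on low counts.

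HOXC6, another trunk gene, rose most. It stood at 3.57, 3.71 and 3.30 CPM with DMSO, at 5.83, 5.86 and 4.96 CPM with MS172 and at 4.51, 4.14 and 4.24 CPM with PK9328. The 3 groups did not overlap and PK9328 lay between the others. The log2 fold change between MS172 and DMSO was 0.65 (SE 0.14, adjusted p = 0.000492). Of the exon bases of HOXC6, 15.7% are shared on the same strand with HOXC4, HOXC9 or a noncoding gene of the symbol HOXC5. HOXC4 had at most 8 reads in a library and HOXC9 none, and the reads of the noncoding gene are not given here. The member HOXC5 starts beyond the end of HOXC6.

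HOXA3 and HOXB9 rose by smaller steps. HOXA3 stood at 13.7, 13.4 and 14.5 CPM with DMSO, at 17.5, 18.3 and 16.8 CPM with MS172 and at 16.6, 15.97 and 15.3 CPM with PK9328, with a log2 fold change of 0.34 (SE 0.08, adjusted p = 0.000859). HOXB9 stood at 16.6, 16.1 and 17.2 CPM with DMSO, at 19.2, 19.6 and 19.1 CPM with MS172 and at 18.6, 17.3 and 17.5 CPM with PK9328, with a log2 fold change of 0.21 (SE 0.07, adjusted p = 0.0181). For both genes all DMSO libraries were the lowest. The HOXA3 call was lost with length-scaled TPM (log2 fold change 0.08, adjusted p = 0.729), and the HOXB9 call without DMSO library 2 or MS172 library 2 (adjusted p up to 0.0682).

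Among the members without a call, HOXA2, HOXA13, HOXB3, HOXB5, HOXB7, HOXB8 and HOXC5 overlapped between the groups, with log2 fold changes from -0.38 (HOXC5) to 0.25 (HOXA2). The calls of HOXA11, HOXB2, HOXB6 and HOXC6 were kept in all 16 alternatives run for them, including each of the 6 compared libraries left out in turn.

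**Figure D4:**
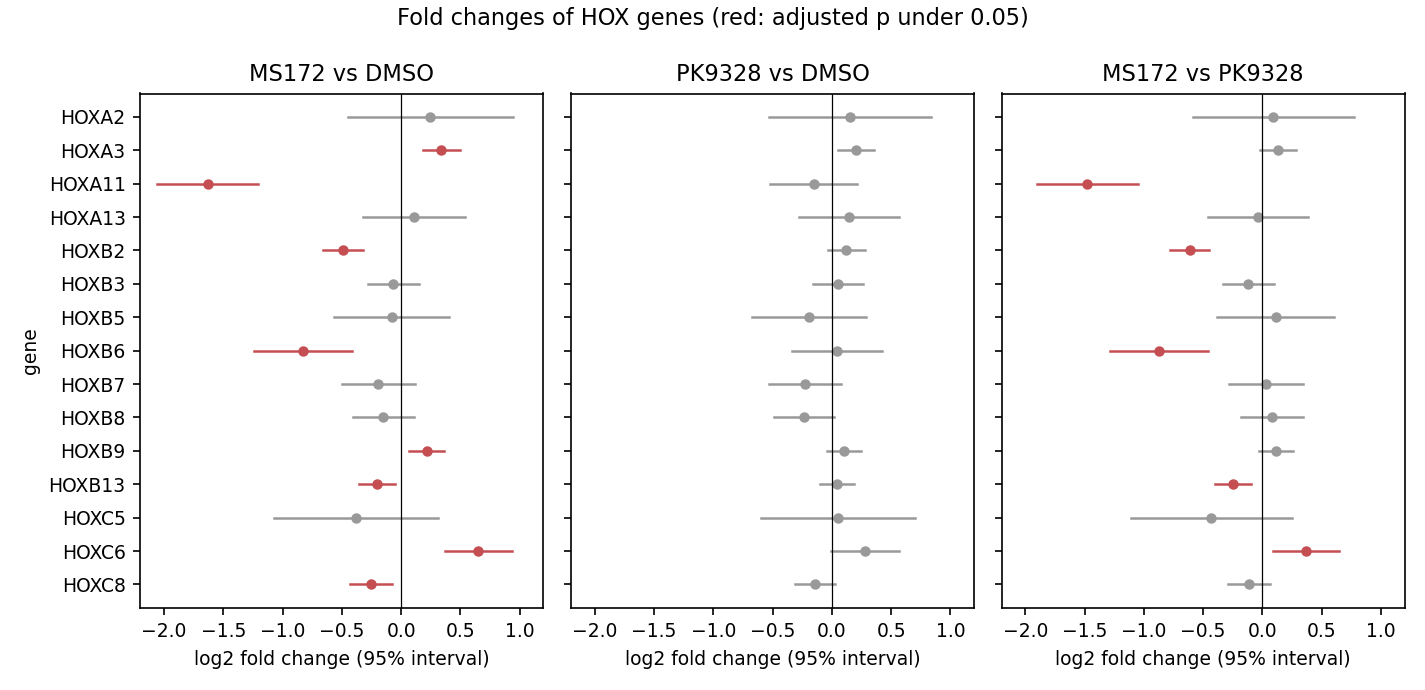
Log2 fold change of tested HOX genes in 3 comparisons, with 95% intervals and red for an adjusted p under 0.05. The first panel has 8 red genes in both directions, the second none, and the third 5, of which HOXA11 is lowest at -1.48.

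Called members lay beside members without a call in each cluster. In HOXA, 1 of 5 tested members fell and 1 rose, in HOXB 3 of 8 fell and 1 rose, and in HOXC 1 of 3 fell and 1 rose, beside 17.2% of all genes lower and 17.9% higher. By position, 1 rose and 1 fell among 5 tested members of groups 1 to 3, 1 rose and 2 fell among 7 of groups 4 to 8, and 1 rose and 2 fell among 4 of groups 9 to 13. These counts rest on 3 to 8 members each, and differences between clusters or positions were not tested. HOXB9 and HOXB13 had opposite signs, as had HOXC6 and HOXC8.

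The second test compared PK9328 with DMSO, using the same DMSO libraries. In edgeR, 0 of the 16 members were called, beside 15.5% of all genes (7.98% higher and 7.48% lower), and DESeq2 and limma-voom also called 0. At an unadjusted p under 0.05 there was 1 member, HOXA3, with a log2 fold change of 0.20 (SE 0.08) and an adjusted p of 0.0666. Its PK9328 libraries lay above all DMSO libraries. Groups did not overlap for 4 of 16 members, among them HOXB9 and HOXC6, beside 31.3% of all genes. Log2 fold changes ran from -0.23 (HOXB8) to 0.28 (HOXC6). For HOXA11 the 95% interval was -0.52 to 0.21, for HOXB6 -0.34 to 0.42 and for HOXB2 -0.04 to 0.28. For HOXC6 it was -0.0041 to 0.57. Fragment length, read from the transcript tables, was 249.5 to 263.0 bases in the PK9328 libraries and 281.2 to 289.1 bases in the DMSO libraries. With it as a covariate the count of called members was also 0, beside 1.28% of all genes. Fragment length did not overlap between these groups, so that fit cannot tell it apart from the compound and adds little to the count of 0.

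The third test compared the compounds directly, for which the protocol states the same dose and time. Relative to PK9328, MS172 gave lower HOXA11, HOXB6, HOXB2 and HOXB13 and higher HOXC6. These 5 calls were 31.25% of the 16 tested members, beside 47.7% of all genes (23.3% higher and 24.4% lower), and 8 members did not overlap, beside 55.4% of all genes. The log2 difference was -1.48 (SE 0.21, adjusted p = 9.84e-07) for HOXA11, -0.87 (SE 0.20, adjusted p = 0.00065) for HOXB6 and -0.61 (SE 0.08, adjusted p = 3.34e-07) for HOXB2. It was -0.25 (SE 0.07, adjusted p = 0.00606) for HOXB13 and 0.37 (SE 0.14, adjusted p = 0.0256) for HOXC6. The HOXC6 difference missed the threshold in 8 of 16 alternatives, among them without MS172 library 1, MS172 library 2, PK9328 library 2 or PK9328 library 3, with adjusted p up to 0.321. With fragment length as a covariate HOXB6 and HOXB13 also lost their calls, at adjusted p of 0.167 and 0.724. The HOXB6 difference was then still -0.87, and its range over the 16 alternatives was -0.92 to -0.73, whereas the HOXB13 difference was -0.095. HOXA3 (0.13, 95% interval -0.02 to 0.29), HOXB9 (0.12, interval -0.03 to 0.26) and HOXC8 (-0.12, interval -0.29 to 0.06), which had changed against DMSO, were not called between the compounds.

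Summed marker levels were also read in each group. KRT8, KRT18 and KRT19 made up most of the ductal and epithelial sum, and VIM most of the mesenchymal sum. The summed level of the ductal and epithelial list was 1748 to 1834 TPM with DMSO, 1857 to 1956 TPM with MS172 and 1661 to 1690 TPM with PK9328, and 5 of its 9 tested members rose and 1 fell with MS172, beside 17.9% of all genes higher and 17.2% lower. The mesenchymal list summed to 9287 to 9689 TPM with DMSO, 9094 to 9459 TPM with MS172 and 8261 to 8625 TPM with PK9328. The MS172 sums thus overlapped those with DMSO, and the PK9328 sums lay below both. Of its 15 tested members 3 rose and 2 fell with MS172, a share near the 35.1% of all genes called. With PK9328, 1 ductal member rose and 2 fell, and 0 mesenchymal members rose and 5 fell, beside 15.5% of all genes called. EPCAM, CDH1, FAP and PDGFRA stayed at 0 to 3 reads in every library. The part of these shifts in the HOX results was not tested.

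Transcript tables showed which isoforms carried these values. The fall of HOXA11 was carried by its transcript HOXA11-202, which stood at 1.89, 1.39 and 1.64 TPM with DMSO and at 0 in all 3 MS172 libraries. HOXA11-201 stood at 0, 0.681 and 0.178 TPM with DMSO and at 0.516, 0.556 and 0.494 TPM with MS172. Both transcripts use nearly the same exons, apart from 170 bases that HOXA11-202 removes between its first and second exon. The split was also unstable within a group, since PK9328 library 3 had 0 TPM of HOXA11-202 and 1.78 TPM of HOXA11-201, and the sum is therefore the firmer value.

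For HOXA3, the transcript HOXA3-205 of 503 bases took 5.27, 6.75 and 4.59 TPM with DMSO, 2.71, 4.36 and 4.58 TPM with MS172 and 10.8, 4.40 and 5.58 TPM with PK9328. The longer HOXA3-201 stood at 5.49 to 5.83 TPM with DMSO and at 6.27 to 6.69 TPM with MS172, without overlap. The CPM of HOXA3 thus rose with MS172 while its summed TPM, at 11.5 ± 1.01 with DMSO and 10.9 ± 0.959 with MS172, overlapped.

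**Figure D5:**
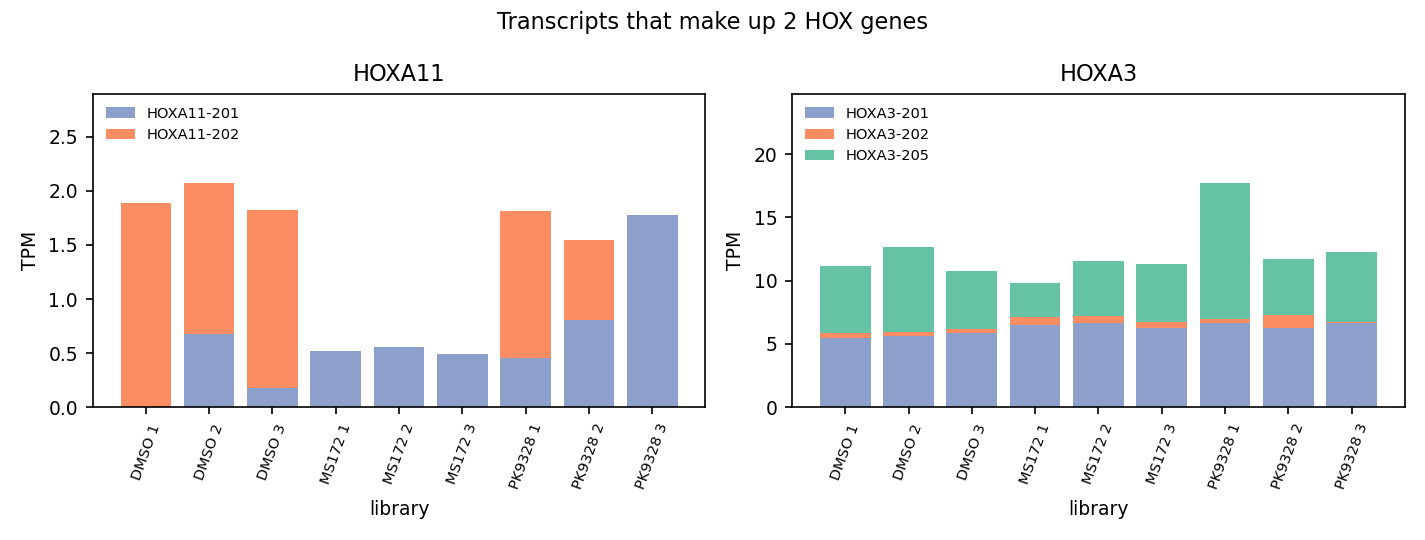
TPM of the transcripts of HOXA11 and HOXA3 in each of 9 libraries, stacked so that bar height is their sum. HOXA11-202 is at 0 in the 3 MS172 libraries, and the short HOXA3-205 varies from 2.71 to 10.8 TPM while HOXA3-201 varies little.

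Exons shared with neighbouring genes limit some values, because reads were split by the authors' quantification and whether it used strand is not given in the sources used here. HOXA11 shares 31.1% of its exon bases with HOXA11-AS on the opposite strand, HOXA7 shares 62.5% with HOXA-AS3, and HOXB6 shares 16.6% with HOXB3 on the same strand and 16.3% with HOXB-AS3 on the other. HOXA3 shares 15.4% with HOXA-AS2 or HOXA-AS3 on the opposite strand and 9.24% with AC004080.5 or AC004080.6 on the same strand. HOXC5 shares 59.9% on the same strand, in part with a noncoding gene of the same symbol that was not counted as a member. HOXB7, HOXB8, HOXB9, HOXB13 and HOXC8 share none.

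Of 30 noncoding and flanking genes of the clusters found in the tables, 21 stayed under 1 TPM in every library, and 9 were tested. HOXA11-AS stood at 0.581, 0.624 and 0.693 CPM with DMSO, at 0.938, 1.06 and 0.709 CPM with MS172 and at 0.551, 1.197 and 0.894 CPM with PK9328. Its MS172 libraries lay above its DMSO libraries, and its log2 fold change of 0.51 had a 95% interval from -0.20 to 1.22 and an adjusted p of 0.270. HOXA-AS2 (6.22 CPM), HOXB-AS1 (1.92 CPM) and HOTAIRM1 (1.01 CPM) were not called in any comparison. HOTTIP, transcribed beside HOXA13, had at most 5 reads, and HOTAIR, transcribed within HOXC, at most 1. Among the flanking genes, SMUG1 next to HOXC fell with MS172 by -0.24 (log2, adjusted p = 0.0324) and SKAP2 next to HOXA was lower with MS172 than with PK9328 by -0.11 (adjusted p = 0.0388).

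Genes of the proteins that work with HOX factors were read from lists. Counts in each list stand beside 35.1% of all genes called with MS172 (17.9% higher and 17.2% lower) and 15.5% with PK9328. Of the TALE cofactors (PBX, MEIS, PKNOX and TGIF families and a PBX-binding protein), 3 of 11 tested rose and 1 fell with MS172, a share near that of all genes, and 1 rose and 2 fell with PK9328. PBX2 at 61.7 TPM, MEIS3 at 27.8 TPM, MEIS2 at 9.43 TPM and PBX3 at 7.88 TPM were the main binding partners present, whereas MEIS1 stood at 0.252 TPM. TGIF1, a repressor of the TALE class, rose by 0.31 with MS172 and by 0.37 with PK9328 (log2). MEIS2 fell by 0.21 with MS172, and MEIS3 fell by 0.20 with PK9328. PBXIP1, which binds PBX proteins, rose by 0.19 with MS172 and fell by 0.17 with PK9328, and the direct difference was 0.36.

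Of 26 tested Polycomb genes, 7 rose and 3 fell with MS172, near the 35.1% of all genes, and 3 rose and 4 fell with PK9328, beside 15.5% of all genes. EZH1, a histone H3 lysine 27 methyltransferase, fell from 28.6 ± 1.04 to 15.98 ± 0.586 CPM with MS172 (log2 fold change -0.84) and rose by 0.24 with PK9328. Its paralogue EZH2 was not called in any comparison (0.11 with MS172, adjusted p = 0.0949). PCGF2 rose by 0.34 and CBX6 by 0.27 with MS172, while CBX6 fell by 0.22 with PK9328. These are subunits of Polycomb repressive complex PRC1.

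Of 21 tested Trithorax-type and H3K27 demethylase genes, 4 rose and 2 fell with MS172, below the 35.1% of all genes, and 2 rose and 1 fell with PK9328, near the 15.5% of all genes. KDM6B, which removes H3K27 methylation, rose by 0.41 with MS172 and by 0.30 with PK9328. KDM6A, a demethylase of the same mark, had 0 reads in all 9 libraries, although 14 of its 14 annotated transcripts were in the tables. DOT1L, an H3K79 methyltransferase, rose by 0.21 with MS172, and DPY30, a core subunit of the methyltransferase complexes, by 0.23. KMT2A and MEN1, which act on HOX genes in leukemia, had log2 fold changes of 0.02 and -0.03 with MS172 and were not called. EP300 was at 0.15 with an adjusted p of 0.0544, and the related CREBBP rose by 0.19 with PK9328 but stood at -0.07 with MS172 (adjusted p = 0.384).

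Of 9 genes for chromatin architecture, 1 rose and 4 fell with MS172, beside 17.9% of all genes higher and 17.2% lower. The cohesin genes RAD21 and STAG1 fell by 0.19 and 0.20 with MS172, the cohesin release factor WAPL fell by 0.14, and MAZ rose by 0.23. CTCF, which marks the boundaries within HOX clusters, had a log2 fold change of -0.03 (adjusted p = 0.746). Of 12 tested genes for retinoic acid and CDX inputs, which open HOX clusters in the embryo, 2 rose and 1 fell with MS172, below the share of all genes. GBX2 rose by 0.53 and RARA, a retinoic acid receptor, by 0.21, and CDX2, known as an activator of trunk HOX genes, fell by 0.61. With PK9328 RARA rose by 0.33 and ALDH1A1, which makes retinoic acid, fell by 0.19. RARG was higher with MS172 than with PK9328 by 0.18.

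Other regional transcription factors were read beside the HOX code. At 1 TPM or more in all libraries were 8 of 25 limb and body wall genes, 6 of 12 urogenital genes, 5 of 14 head and anterior neural genes and 6 of 24 foregut and pancreas genes. The highest with DMSO were SOX9 at 93.5 TPM, OSR1 at 67.5 TPM, PRRX2 at 39.0 TPM, NKX2-5 at 31.2 TPM, PITX1, a hindlimb gene, at 30.2 TPM, and TBX2 at 26.98 TPM. PAX8 at 14.7 TPM, GATA4 at 13.6 TPM and LMX1B at 10.6 TPM were also present. PDX1, the pancreas factor, stood at 0.147 TPM, and PTF1A, FOXA2, TBX5 and OTX2 had no read in any library.

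With MS172 the calls among these genes lay about at the 35.1% of all genes called. Of 9 tested limb genes, 1 rose (PRRX2, 0.20) and 2 fell (SHOX2, -0.32, and TBX4, -0.45). Of 8 urogenital genes, 1 rose (LHX1, 1.04) and 3 fell (among them PAX2, -0.48, and OSR1, -0.41). Of 6 head genes 2 fell (ALX4, -0.44, and DLX1, -0.30), and of 10 foregut genes 2 rose (SOX9, 0.29, and NKX6-1, 1.42, from 0.271 to 0.745 CPM) and 2 fell (NKX3-2, -0.73, and FOXF1, -0.55). With PK9328, OSR1 fell by 0.31 and PITX1 by 0.15.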

How the data were processed

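Poly(A) RNA of 9 libraries, 3 each for DMSO, MS172 and PK9328, was analysed, with groups taken from the titles. The tables deposited by the authors list 197653 transcripts per library, each with an estimated count of reads, a TPM value and its length and effective length, per the file headers. Transcript TPM, by definition scaled to transcript length and library total, was used as the authors gave it. FastQC 0.11.8 and the build hg38 are named in the submitters' processing notes, while the program used for quantification is not given in the sources used here. By unversioned identifier, transcripts were joined to GENCODE 29 (193348 matched, unmatched reads 0.356% to 0.382%), estimated counts were summed per gene and rounded, and TPM were summed for levels. Coordinates of genes are those of GENCODE 29 on GRCh38.

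The 13914 genes passing filterByExpr were tested with edgeR 4.0.16 (R 4.3.3; quasi-likelihood, robust, TMM, all 9 libraries in 1 fit, 6 residual degrees of freedom), with Benjamini-Hochberg adjustment over all of them. Standard errors were taken from the F statistic of each fold change. In data simulated for the MS172 and DMSO comparison over 13914 genes, 163, 186 and 196 of 200 genes changed by a log2 of 0.5, 1 and 1.6 were recovered. False calls numbered 5, 16 and 7. All genes were simulated with the same common spread, and changed genes were drawn from all tested genes. These rates therefore do not carry over to single HOX members, many of which had low counts. Alternatives included DESeq2 1.42.0, limma-voom (limma 3.58.1), other filters and scalings, length-scaled TPM, protein-coding transcripts only, fragment length as a covariate (length minus effective length, read from transcripts longer than or equal to 3000 bases), the replicate number as a block and each library left out.

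All members are in the counts, and some genes that the rules would name are not reported here. Library values are given for members called in any comparison and for the 8 highest. Up to 4 called genes of each other list with the smallest p were named, plus genes named whatever their result. PBX2, MEIS2, PBX3, CDX2, CTCF, the regional factors quoted for their level and the genes at 0 reads are further examples chosen after their values were seen. The members and lists were chosen with earlier results of these data known.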

Additional observations from a re-analysis of the deposited data

How the results depend on the processing

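The 4 most stable members with MS172 against DMSO were HOXA11, HOXB2, HOXB6 and HOXC6, whose calls held in all 16 alternatives run. The number of members called there was 8, and 5 with length-scaled TPM. Between the compounds it was 5, and 2 with fragment length as a covariate. Over the whole table, PK9328 against DMSO gave 2151 genes, 1082 with length-scaled TPM, 178 with the covariate and 1384 to 2215 with 1 library left out (1384 without DMSO library 1 and 1400 without PK9328 library 2). MS172 against PK9328 gave 6641 genes and 2480 with the covariate. The covariate moves with the PK9328 group, and the cause of these changes was not tested. The replicate numbers did not pair the libraries: same-numbered libraries had deviations correlated from -0.057 to 0.017 over 9 pairs, and others from -0.049 to 0.056. With the replicate block, 4597, 1884 and 6405 genes were called with MS172, with PK9328 and between the compounds, and 8, 0 and 5 members.

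Summed as TMM-scaled CPM in place of TPM, the MS172 difference from DMSO was 0.061 for HOXA (a change of direction), -0.17 for HOXB and -0.046 for HOXC, and from PK9328 -0.046, -0.20 and -0.00296. With protein-coding transcripts only, the HOXB difference from DMSO was -0.35. The other changes of direction were in members without a call. With the covariate, PK9328 against DMSO gave -0.015 for HOXA13, -0.27 for HOXB3, -0.10 for HOXB13 and 0.086 for HOXB7, and MS172 against PK9328 gave -0.83 for HOXA2, 0.13 for HOXA13, -0.13 for HOXB8, -0.060 for HOXB5, 0.21 for HOXB3 and -0.30 for HOXB7. Length-scaled TPM gave -0.035 for HOXB3 with PK9328 against DMSO and -0.14 for HOXA3 between the compounds. With 1 library left out, fold changes with MS172 against DMSO ran from -0.039 to 0.44 for HOXA2 and from -0.265 to 0.0061 for HOXB5. With PK9328 against DMSO they ran from -0.043 to 0.32 for HOXA2, -0.0037 to 0.073 for HOXB6, -0.024 to 0.107 for HOXB3 and -0.116 to 0.272 for HOXC5. Between the compounds they ran from -0.191 to 0.285 for HOXA2, -0.227 to 0.071 for HOXA13, -0.056 to 0.215 for HOXB8, -0.078 to 0.279 for HOXB5 and -0.054 to 0.170 for HOXB7.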
